A study of Rattus norvegicus with 16 samples.

Results

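The genes described here carry out or control mitosis, and they were taken from a list of 46 gene symbols: mitotic cyclins and kinases, spindle checkpoint proteins, mitotic kinesins, kinetochore and cytokinesis proteins, condensins and DNA topoisomerase II alpha. The symbols were looked up among the probe sets with exactly 1 gene symbol, and each gene was represented by its brightest probe set on average. The array annotation used here named 38 of them, among 14324 named genes, and 37 were bright enough to be tested, among 11796 genes tested. Kif18a, Cenpe, Cenpf, Birc5, Ncapg, Ncaph, Anln and Espl1 were not named and are not analysed here, and Kif20b lay under the filter on low values.

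RNA came from mammary glands of female Wistar Han rats whose mothers had been dosed by gavage once a day between gestational day 1 and weaning at postnatal day (PND) 21. The 4 treatments were an untreated control, genistein (a soy isoflavone that binds oestrogen receptors), vinclozolin (a dicarboximide fungicide whose metabolites block the androgen receptor) and a mixture of both compounds, with a stated dose of 1 mg per kg body weight per day. The labels do not say whether the mixture held that dose of each compound. Glands were taken at PND35 and PND50, so the offspring had received no direct dose after weaning. All groups shared the strain, the sex and a phytoestrogen-free purified diet, and dams were allotted at random in groups of 15. The labels state 1 female per litter but also 20 female offspring per treatment, more than the 15 dams. Whether animals of different pools or ages shared a litter is not stated. RNA of 5 animals was pooled for each array, with 2 pools in each of the 8 groups of treatment and age. The labels call the animals pubertal or cycling and give no cycle stage for a pool. A p-value below therefore measures the spread between pools of animals, not between single animals.

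Entry into mitosis is driven by the cyclin-dependent kinase CDK1 bound to cyclin A or B, and it is released from inhibition by CDC25 phosphatases. Chromosomes then attach to spindle microtubules through kinetochores, the spindle checkpoint holds back the anaphase-promoting complex until all are attached, and CDC20 then activates that ligase to degrade cyclin B and securin. Transcripts of most of these proteins are made in G2 and M phase and are low in resting cells, so in whole tissue they are widely used as an index of proliferation. In the rat mammary gland around puberty, dividing epithelial cells are concentrated in the terminal end buds that lead ductal growth. In a bulk sample such as these, fewer dividing cells and less mitotic RNA per cell cannot be told apart.

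Many mitotic genes are repressed outside G2 and M phase through a cell cycle homology region (CHR, letters TTTGAA) close to the transcription start, often with CCAAT boxes upstream that bind the factor NF-Y. The promoters below, from RefSeq on the GRCr8 assembly, are shown because these 5 genes are core members and differ in whether they carry those letters. Each line gives 250 bases before the annotated start and the first 30 bases after it, read 5′ to 3′ on the gene's own strand, and capitals mark TTTGAA and CCAAT or their reverse complements TTCAAA and ATTGG. Cdk1 lies at chr20:19265043-19265322, plus strand. Ccnb1 lies at chr2:33655196-33655475, minus strand. Ccnb2 lies at chr8:79981629-79981908, minus strand. Cdc20 lies at chr5:137255770-137256049, minus strand. Plk1 lies at chr1:186147408-186147687, plus strand.
Cdk1: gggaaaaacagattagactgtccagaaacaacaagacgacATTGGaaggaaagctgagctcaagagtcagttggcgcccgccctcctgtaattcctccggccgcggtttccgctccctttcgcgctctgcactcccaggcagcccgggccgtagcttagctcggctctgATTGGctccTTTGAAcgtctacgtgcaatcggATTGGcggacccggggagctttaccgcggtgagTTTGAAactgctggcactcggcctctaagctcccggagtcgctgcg
Ccnb1: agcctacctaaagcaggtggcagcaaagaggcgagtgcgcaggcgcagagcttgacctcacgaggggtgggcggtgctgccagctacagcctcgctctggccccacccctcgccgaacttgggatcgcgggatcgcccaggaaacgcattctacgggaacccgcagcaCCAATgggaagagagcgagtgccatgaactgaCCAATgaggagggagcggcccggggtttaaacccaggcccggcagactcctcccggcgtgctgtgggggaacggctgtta
Ccnb2: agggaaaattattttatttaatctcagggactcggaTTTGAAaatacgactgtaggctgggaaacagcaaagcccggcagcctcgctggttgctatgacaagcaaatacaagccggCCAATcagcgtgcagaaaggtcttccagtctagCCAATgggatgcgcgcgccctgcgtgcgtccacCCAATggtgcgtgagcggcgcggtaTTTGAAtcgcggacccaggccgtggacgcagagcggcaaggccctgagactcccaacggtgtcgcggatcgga
Cdc20: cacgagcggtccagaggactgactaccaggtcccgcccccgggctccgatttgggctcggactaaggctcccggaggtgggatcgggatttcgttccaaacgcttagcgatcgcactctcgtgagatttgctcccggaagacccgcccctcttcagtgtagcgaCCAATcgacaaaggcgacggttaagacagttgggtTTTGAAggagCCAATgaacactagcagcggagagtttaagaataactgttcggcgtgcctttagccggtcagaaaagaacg
Plk1: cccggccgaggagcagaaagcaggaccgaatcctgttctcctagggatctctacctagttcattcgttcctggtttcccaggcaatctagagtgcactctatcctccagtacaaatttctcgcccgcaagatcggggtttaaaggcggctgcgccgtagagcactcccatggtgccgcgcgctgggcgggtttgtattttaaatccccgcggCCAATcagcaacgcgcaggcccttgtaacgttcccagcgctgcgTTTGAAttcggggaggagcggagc

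Cdk1 carried TTTGAA at -72 to -67 and -16 to -11 from the start, and Cdc20 at -51 to -46. The Ccnb1 promoter held 2 CCAAT boxes, at -82 to -78 and -50 to -46, and no TTTGAA in this window, which says only that these letters are not there. Of the 38 named genes, 33 had a promoter in the RefSeq table, searched over 250 bases before and 50 after the start on both strands. TTTGAA or its reverse complement stood in 24 of them (72.73%), against 18.35% of all 33469 promoters of that length and 12.19% of the 9735 promoters of genes tested here. CCAAT or its reverse complement stood in 23 of 33 (69.7%), against 37.49% of all promoters and 37.73% of those of tested genes, and both motifs stood in 18 of 33 (54.55%), against 7.41% and 5.044%. The E2F motif GCGGGAA was found in 2 of 33 (6.061%), between the shares of 4.207% in all promoters and 7.386% in those of tested genes. Of the 31 TTTGAA matches, 28 began no more than 120 bases before the start or after it. Cdca8 held the only pair of matches that shared a base. Aurka, Bub1, Kif2c and Melk had neither TTTGAA nor CCAAT. A match of letters is a description of sequence and not a measurement of binding.

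The deposited table gave 27342 probe sets per array with array medians of 7.05 to 7.14, read here as log2 intensities. Replicate pools correlated at 0.989 to 0.997 over all probe sets, lowest for vinclozolin at PND35. The luminal epithelial keratins, cadherin and transcription factors that define mammary epithelium were named and above the filter for all 20 markers of that list, as were 14 of 15 named adipocyte markers. RNA of other tissue types was also present: 19 of 19 named skeletal muscle markers passed the filter, and the mean level of that list ranged from 6.49 to 10.26 across pools. Both vinclozolin pools at PND35 stood apart in skin and hair follicle genes, with mean centred levels of 2.52 and 2.04 against -0.48 to -0.21 in the other 14 pools. Precision is limited by the number of arrays, and levels of different probe sets are not compared.

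The first comparison asks how mitotic gene levels differed between the 2 ages, averaged over the 4 treatments. Of the 37 members tested, 35 fell from PND35 to PND50 and none rose (limma adjusted p under 0.05), where 25.2% of all tested genes fell and 19.4% rose. All 37 differences were below 0, against 51.9% of all genes. The median log2 difference was -0.60, which is 1.52-fold lower at PND50, and the median of all genes was -0.0078. Single differences ranged from -0.84 for Ndc80 to -0.15 for Cdca8. In the heat map of centred values by pool, the PND35 columns are mostly above each gene's mean and the PND50 columns below it. The first vinclozolin pool at PND35 and, at PND50, both vinclozolin pools and 1 control pool depart from that split. The first genistein pool at PND35 has genes on both sides of their means, with a mean centred level of 0.03.

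**Figure D1:**
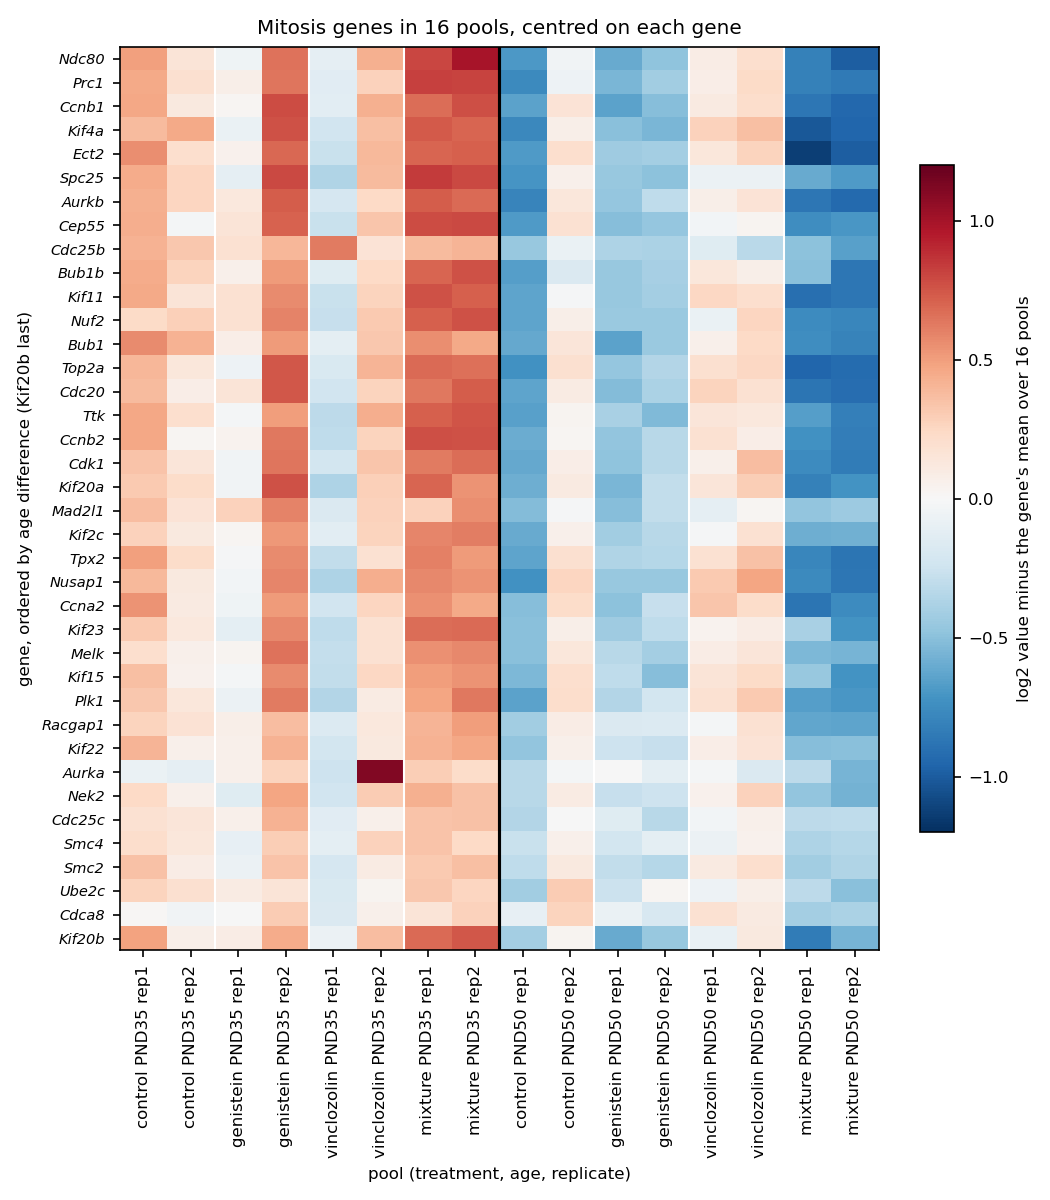
Heat map of the log2 value of each of the 38 named mitosis genes in each of the 16 pools, centred on the gene's mean over all pools; rows are genes ordered by their age difference, columns are pools by treatment and age, and colour gives the difference from the gene's mean. The mixture pools at PND35 are high and those at PND50 low in nearly every row, while the control pair at PND50 and the genistein and vinclozolin pairs at PND35 show 1 pool apart from the other.

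The mitotic kinase and its cyclins were lower at PND50 as a group. Cdk1, the kinase that starts mitosis, read 7.73 and 7.53 in the control pools, 7.35 and 8.03 with genistein, 7.17 and 7.72 with vinclozolin and 8.01 and 8.05 with the mixture at PND35. Cdk1 at PND50 read 6.77 and 7.47 in the control pools, 6.90 and 7.05 with genistein, 7.45 and 7.75 with vinclozolin and 6.63 and 6.54 with the mixture. A mixture pool was thus the highest at PND35 and both mixture pools were the lowest at PND50, 5 of the 8 PND50 pools lay below every PND35 pool, and both vinclozolin pools and 1 control pool at PND50 lay inside the PND35 range. Cdk1 fell by 0.63 on the log2 scale over the 4 treatments (SE 0.13, limma adjusted p = 0.00242). Ccnb1 encodes cyclin B1, the partner of CDK1 at mitotic entry, and read 8.53 and 8.18 in the control pools, 8.10 and 8.85 with genistein, 7.94 and 8.49 with vinclozolin and 8.74 and 8.84 with the mixture at PND35. Ccnb1 at PND50 read 7.43 and 8.23 in the control pools, 7.42 and 7.56 with genistein, 8.17 and 8.28 with vinclozolin and 7.20 and 7.13 with the mixture. Its highest pool was the second genistein pool at PND35, and the 2 ages overlapped through the vinclozolin pools and 1 control pool at PND50. Ccnb1 had a log2 difference of -0.78 (SE 0.14, limma adjusted p = 0.00114).

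Ccnb2, the second B-type cyclin, read 8.29 and 7.86 in the control pools, 7.87 and 8.47 with genistein, 7.52 and 8.10 with vinclozolin and 8.61 and 8.59 with the mixture at PND35. Ccnb2 at PND50 read 7.23 and 7.85 in the control pools, 7.36 and 7.501 with genistein, 8.01 and 7.91 with vinclozolin and 7.10 and 7.004 with the mixture. The mixture pools stood at both ends of the range, with 5 PND50 pools below every PND35 pool. The difference was -0.67 (SE 0.12, limma adjusted p = 0.0014), and a second Ccnb2 probe set gave -0.67 as well. Ccna2, cyclin A2, which acts in S phase and G2, read 9.19 and 8.76 in the control pools, 8.60 and 9.17 with genistein, 8.42 and 8.91 with vinclozolin and 9.21 and 9.11 with the mixture at PND35. Ccna2 at PND50 read 8.14 and 8.87 in the control pools, 8.17 and 8.38 with genistein, 8.99 and 8.88 with vinclozolin and 7.78 and 7.90 with the mixture. Both vinclozolin pools at PND50 were above the first genistein and first vinclozolin pools at PND35, so the ages overlapped. Ccna2 had a difference of -0.53 (SE 0.12, limma adjusted p = 0.00542).

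The phosphatases that activate CDK1 were Cdc25b and Cdc25c. Cdc25b read 10.11 and 10.01 in the control pools, 9.88 and 10.09 with genistein, 10.32 and 9.86 with vinclozolin and 10.07 and 10.10 with the mixture at PND35. Cdc25b at PND50 read 9.24 and 9.61 in the control pools, 9.32 and 9.31 with genistein, 9.54 and 9.37 with vinclozolin and 9.20 and 9.04 with the mixture. It was the 1 member of 37 whose 8 PND50 pools all lay below its 8 PND35 pools, a separation found in 3.98% of all genes in this direction. Cdc25b fell by 0.72 (SE 0.07, limma adjusted p = 9.34e-05), the smallest adjusted p among the members. Cdc25c read 7.51 and 7.48 in the control pools, 7.39 and 7.75 with genistein, 7.20 and 7.39 with vinclozolin and 7.68 and 7.68 with the mixture at PND35. Cdc25c at PND50 read 6.98 and 7.33 in the control pools, 7.19 and 7.0 with genistein, 7.30 and 7.39 with vinclozolin and 7.02 and 7.03 with the mixture. Its lowest pool was the first control pool and not a mixture pool, and only the lowest PND35 pool, the first with vinclozolin, fell into the PND50 range. The difference was -0.36 (SE 0.06, limma adjusted p = 0.00142).

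Among the other mitotic kinases, Plk1 and Aurkb fell with age and Aurka did not pass the test. Plk1, polo-like kinase 1, which acts from mitotic entry to cytokinesis, read 8.88 and 8.69 in the control pools, 8.49 and 9.18 with genistein, 8.20 and 8.65 with vinclozolin and 9.02 and 9.19 with the mixture at PND35. Plk1 at PND50 read 7.92 and 8.77 in the control pools, 8.20 and 8.34 with genistein, 8.74 and 8.87 with vinclozolin and 7.89 and 7.86 with the mixture. Only 3 PND50 pools were below every PND35 pool, and both vinclozolin pools at PND50 exceeded the first genistein pool and both vinclozolin pools at PND35. The Plk1 difference was -0.46 (SE 0.13, limma adjusted p = 0.0135). Aurkb, the kinase of the chromosomal passenger complex, which corrects wrong attachments, read 8.31 and 8.14 in the control pools, 8.01 and 8.61 with genistein, 7.68 and 8.12 with vinclozolin and 8.60 and 8.56 with the mixture at PND35. Aurkb at PND50 read 7.09 and 8.02 in the control pools, 7.41 and 7.58 with genistein, 7.95 and 8.04 with vinclozolin and 7.01 and 6.95 with the mixture. The mixture pools at PND50 lay lowest, and the vinclozolin pools and 1 control pool of that age were the highest. Aurkb fell by 0.75 (SE 0.13, limma adjusted p = 0.00107).

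Aurka, the centrosomal Aurora kinase, read 6.67 and 6.64 in the control pools, 6.80 and 7.02 with genistein, 6.50 and 7.86 with vinclozolin and 7.04 and 6.97 with the mixture at PND35. Aurka at PND50 read 6.42 and 6.72 in the control pools, 6.75 and 6.63 with genistein, 6.73 and 6.58 with vinclozolin and 6.43 and 6.19 with the mixture. The second vinclozolin pool at PND35 was far above the other 15 pools, whose highest value was 7.04, and the difference between ages of -0.38 had one of the widest errors among the members (SE 0.15, limma adjusted p = 0.0598). Aurka passed the test without the first vinclozolin pool at PND35 (-0.55) and also without the second (-0.21). Cdca8, borealin of the passenger complex, read 6.34 and 6.28 in the control pools, 6.32 and 6.63 with genistein, 6.15 and 6.39 with vinclozolin and 6.48 and 6.60 with the mixture at PND35. Cdca8 at PND50 read 6.23 and 6.59 in the control pools, 6.24 and 6.13 with genistein, 6.51 and 6.43 with vinclozolin and 5.92 and 5.95 with the mixture. Both vinclozolin pools were higher at PND50 than at PND35, the control pools overlapped, and the mixture pools at PND50 were its 2 lowest. Its difference of -0.15 did not pass the test (SE 0.06, limma adjusted p = 0.0797), and did so without the first vinclozolin or first genistein pool at PND35 or the second control pool at PND50 (-0.18, -0.19 and -0.19).

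The 4 spindle checkpoint genes all fell. Bub1b, the checkpoint protein BUBR1, read 6.98 and 6.80 in the control pools, 6.59 and 7.04 with genistein, 6.39 and 6.77 with vinclozolin and 7.23 and 7.29 with the mixture at PND35. Bub1b at PND50 read 5.87 and 6.36 in the control pools, 6.07 and 6.13 with genistein, 6.67 and 6.60 with vinclozolin and 6.03 and 5.66 with the mixture. The vinclozolin pools were the lowest of the PND35 pairs on average and the highest of the PND50 pairs, and 6 PND50 pools lay below every PND35 pool. Bub1b fell by 0.71 (SE 0.09, limma adjusted p = 2.68e-04). Bub1, the kinase that recruits the checkpoint to kinetochores, read 9.03 and 8.87 in the control pools, 8.54 and 8.97 with genistein, 8.35 and 8.78 with vinclozolin and 9.01 and 8.91 with the mixture at PND35. Bub1 at PND50 read 7.84 and 8.61 in the control pools, 7.82 and 8.01 with genistein, 8.52 and 8.70 with vinclozolin and 7.72 and 7.65 with the mixture. Here a control pool and the mixture pools were about level at PND35. Bub1 fell by 0.70 (SE 0.11, limma adjusted p = 6.44e-04).

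Ttk, the checkpoint kinase MPS1, read 6.97 and 6.70 in the control pools, 6.47 and 7.0 with genistein, 6.18 and 6.93 with vinclozolin and 7.21 and 7.25 with the mixture at PND35. Ttk at PND50 read 5.85 and 6.53 in the control pools, 6.11 and 5.97 with genistein, 6.65 and 6.62 with vinclozolin and 5.84 and 5.68 with the mixture. The first vinclozolin pool was low at PND35 and inside the PND50 range. Ttk fell by 0.68 (SE 0.13, limma adjusted p = 0.00155). Mad2l1, which binds and restrains CDC20, read 7.04 and 6.83 in the control pools, 6.95 and 7.27 with genistein, 6.50 and 6.95 with vinclozolin and 6.95 and 7.23 with the mixture at PND35. Mad2l1 at PND50 read 6.15 and 6.66 in the control pools, 6.16 and 6.38 with genistein, 6.56 and 6.70 with vinclozolin and 6.196 and 6.24 with the mixture. Its mixture pools at PND50 were not apart from those of genistein, and the first control pool was lowest. Mad2l1 fell by 0.58 (SE 0.09, limma adjusted p = 7.24e-04).

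For the anaphase-promoting complex, Cdc20, its mitotic activator, read 9.18 and 8.88 in the control pools, 8.95 and 9.54 with genistein, 8.56 and 9.06 with vinclozolin and 9.43 and 9.52 with the mixture at PND35. Cdc20 at PND50 read 8.16 and 8.89 in the control pools, 8.27 and 8.41 with genistein, 9.06 and 8.98 with vinclozolin and 7.92 and 7.88 with the mixture. The genistein and mixture pools did not overlap between ages, and the control and vinclozolin pools did. Cdc20 fell by 0.69 (SE 0.12, limma adjusted p = 0.00105). Ube2c, the ubiquitin-conjugating enzyme that works with the complex, read 8.16 and 8.07 in the control pools, 7.98 and 8.04 with genistein, 7.70 and 7.92 with vinclozolin and 8.21 and 8.15 with the mixture at PND35. Ube2c at PND50 read 7.47 and 8.19 in the control pools, 7.63 and 7.91 with genistein, 7.82 and 7.96 with vinclozolin and 7.57 and 7.39 with the mixture. Its second control pool at PND50 was higher than 7 of the 8 PND35 pools, so the ages overlapped. Ube2c fell by 0.29 (SE 0.09, limma adjusted p = 0.024), the smallest difference among the 35 called, and it missed the threshold without the first vinclozolin, first genistein or second mixture pool at PND50.

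The 7 mitotic kinesins tested all fell. Kif11, the tetrameric motor that pushes spindle poles apart, read 8.30 and 8.004 in the control pools, 8.02 and 8.41 with genistein, 7.58 and 8.11 with vinclozolin and 8.61 and 8.56 with the mixture at PND35. Kif11 at PND50 read 7.21 and 7.83 in the control pools, 7.39 and 7.44 with genistein, 8.10 and 8.05 with vinclozolin and 6.94 and 6.98 with the mixture. Both vinclozolin pools at PND50 were as high as several PND35 pools, and both mixture pools were below every other pool. Kif11 fell by 0.71 (SE 0.10, limma adjusted p = 4.25e-04). Kif4a, a chromosome-bound motor that also acts at the anaphase midzone, ranged over 6.69 to 7.68 at PND35 and 5.90 to 7.28 at PND50 and had the largest kinesin difference, -0.77 (SE 0.14). The others that act on spindle or chromosomes were Kif15, which backs up Kif11 (-0.48), Kif2c, which depolymerises microtubules at centromeres (-0.57), and Kif22, which moves chromosome arms outward (-0.43). The motors of the central spindle, Kif20a and Kif23, differed by -0.60 and -0.53. Kif20b, under the filter at a mean of 5.36, ranged over 5.29 to 6.10 at PND35 and 4.52 to 5.48 at PND50, and a fit of all genes without the filter gave -0.70 (SE 0.10, limma adjusted p = 0.000391).

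The outer kinetochore genes all fell. Ndc80, Nuf2 and Spc25 are subunits of the NDC80 complex, which holds microtubule ends. Ndc80 ranged over 6.89 to 7.99 at PND35 and 6.01 to 7.20 at PND50 and had the largest difference of any member, -0.84 (SE 0.13, limma adjusted p = 5.45e-04). Spc25 differed by -0.76 (SE 0.15) and Nuf2 by -0.71 (SE 0.11). For each of them 5 PND50 pools lay below every PND35 pool. Cytokinesis genes gave differences of the same size: Prc1, which bundles midzone microtubules, differed by -0.79, Ect2, the exchange factor that activates RhoA at the cleavage site, by -0.76, and Cep55, a midbody scaffold, by -0.73. Racgap1, the partner of Kif23 in centralspindlin, differed by -0.44. All 4 passed the test.

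The 3 chromosome structure genes tested, Top2a, Smc2 and Smc4, all fell. Top2a, DNA topoisomerase II alpha, which untangles sister chromatids, read 9.46 and 9.20 in the control pools, 9.004 and 9.81 with genistein, 8.88 and 9.47 with vinclozolin and 9.74 and 9.72 with the mixture at PND35. Top2a at PND50 read 8.33 and 9.26 in the control pools, 8.60 and 8.71 with genistein, 9.25 and 9.32 with vinclozolin and 8.11 and 8.14 with the mixture. The mixture pools at PND50 were lowest, and the vinclozolin pools at PND50 overlapped the PND35 pools. Top2a fell by 0.70 (SE 0.15, limma adjusted p = 0.00307). The condensin ATPases Smc2 and Smc4 ranged over 9.29 to 9.86 at PND35 and 9.09 to 9.70 at PND50, and 9.42 to 9.88 at PND35 and 9.17 to 9.60 at PND50, and both differed by -0.32 (SE 0.08 and 0.07). Spindle proteins Tpx2, which activates Aurora A, and Nusap1, which bundles microtubules, differed by -0.57 and -0.56. The kinases Melk and Nek2, the latter active at centrosomes, differed by -0.49 and -0.37. These 6 all passed the test. The 2 probe sets of Nek2 held identical values. In the dot plot of age differences, all points lie left of 0, and Aurka and Cdca8 are the 2 drawn as not past the threshold.

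**Figure D2:**
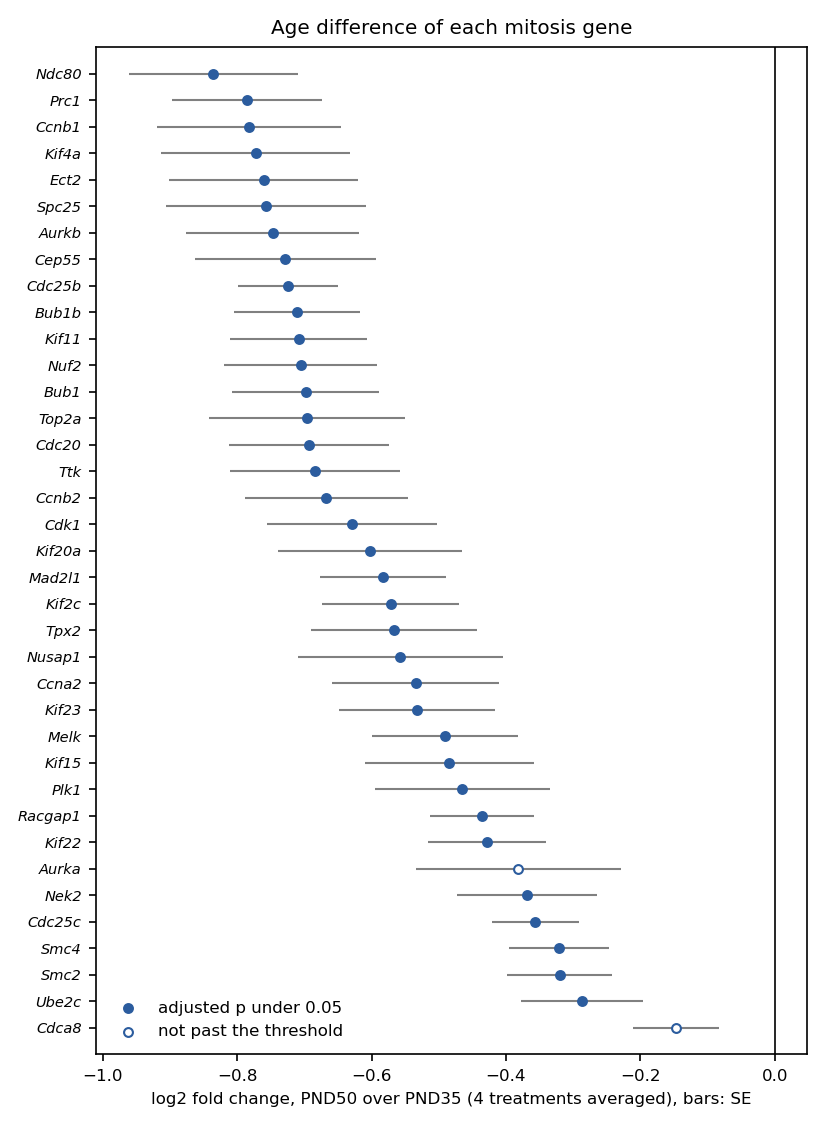
Difference between PND50 and PND35 on the log2 scale, averaged over the 4 treatments, for each of the 37 tested mitosis genes, sorted by size, with bars of 1 standard error from the limma fit and open points for genes not past the threshold. All 37 lie below 0, from -0.84 for Ndc80 to -0.15 for Cdca8, and 35 pass the test.

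Markers of other cell types were compared between ages in the same way, where 25.2% of all tested genes fell and 19.4% rose. Skeletal muscle markers fell in 15 of 19 tested (median -1.15), with mean centred levels of -0.11 to 2.07 in PND35 pools and -1.70 to 1.22 in PND50 pools. Erythroid markers fell in 6 of 9 (median -0.70), mast cell markers fell in 8 of 9 and rose in 1, and adipocyte markers fell in 5 of 14. Skin and hair follicle markers fell in 8 of 11. Within single treatments 9 of 11 fell with vinclozolin, where 1.64% of all genes fell. None fell and 2 rose with the mixture, where 18.3% of all genes fell and 14.4% rose. None was called by limma in control or genistein pools. Luminal epithelial markers rose in 13 of 20 and fell in 1 (median 0.24), lymphocyte markers rose in 10 of 11 (median 0.42), and macrophage markers rose in 6 of 14 and fell in 1. Basal markers rose in 3 of 9 and fell in 1, fibroblast markers rose in 3 of 11 and fell in 4, and endothelial markers rose in 2 of 8 and fell in 1. The basal, fibroblast, endothelial and adipocyte counts lay nearer to the shares of all genes than the muscle and lymphocyte counts. The part of muscle or any other tissue in the fall of mitotic genes was not tested apart from 1 fit: with the muscle level of each pool as a covariate the members' median difference was -0.55 and 1 member, Cdc25b, passed the test, while the genes called in all went from 5261 to 308. Between the replicate pools of a group, the second minus the first had the same sign in mean mitotic and muscle level in 5 of the 8 groups. That difference was 0.53 in mitotic and 0.55 in muscle level for genistein at PND35 and 0.49 and 0.27 for vinclozolin at PND35. It was 0.012 and 1.38 for the mixture at PND35 and 0.65 and -0.17 for control at PND50.

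The same age difference was then taken within each treatment. With the mixture, 36 of 37 members fell from PND35 to PND50, where 18.3% of all genes fell. The median was -1.37, which is 2.59-fold lower at PND50, and all 37 had both PND50 pools below both PND35 pools, against 37.4% of all genes in this direction. The largest was Ndc80 at -1.79 (SE 0.25, limma adjusted p = 8.54e-04), followed by other genes of the list such as Ect2 at -1.77, Ccnb1 at -1.63 and Kif11 at -1.63. The smallest was Cdca8 at -0.61 (SE 0.13, limma adjusted p = 0.00535). Aurka, at -0.69, did not pass (limma adjusted p = 0.1). For every one of the 37 members the mixture gave the lowest of the 4 age differences. Skeletal muscle markers fell here too, in 18 of 19 with a median of -2.78, and with their level as a covariate the members' median was -1.19, no member passed and 1 gene passed in all, against 3852 without it.

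In the genistein pools 2 of 37 members fell, Cdc25b (-0.67, SE 0.15, limma adjusted p = 0.0438) and Mad2l1 (-0.84, SE 0.19, limma adjusted p = 0.0438), where 1.96% of all genes fell. All 37 differences were below 0, with a median of -0.71 and the lowest for Ccnb1 at -0.98. The pools of the 2 ages did not overlap for any of the 37, against 33.6% of all genes lying lower in this way, and 32 had an unadjusted p under 0.05, against 16.2%. The 2 calls were lost when no filter on low values was used, when only the genistein arrays were fitted, with quantile normalization, with median centring, and without any 1 genistein, mixture, control PND35 or vinclozolin PND50 pool. Without either vinclozolin pool at PND35 the count was 7, and without either control pool at PND50 it was 8, since all groups share 1 estimate of the spread. Over the fits without 1 pool the genes called in all ran from 0 to 432, against 327 with all pools.

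In the control pools no member was called by limma, where 0.237% of all genes fell. The median was -0.51, 36 of 37 differences were below 0, and 19 had an unadjusted p under 0.05, against 9.32% of all genes. The PND50 pools lay below the PND35 pools for 22 members, against 26.8% of all genes. The smallest adjusted p belonged to Cdc25b, at -0.64 (SE 0.15, limma adjusted p = 0.0724), and the lowest difference to Bub1b, at -0.77 (limma adjusted p = 0.08). Cdca8 was the 1 member above 0, at 0.10. The control median rested on the PND50 pair, which was far apart: it was -0.86 without the second control pool at PND50 and -0.16 without the first.

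In the vinclozolin pools the differences centred near 0. Of 37 differences 30 were above 0, against 50.6% of all genes, with a median of 0.11. Cdc25b alone was called, lower at PND50 (-0.63, SE 0.15, limma adjusted p = 0.048), where 1.64% of all genes fell. That call was lost in a fit of the vinclozolin arrays alone, without the filter, with quantile normalization, with a replicate block, and without any 1 genistein, mixture, control PND35 or vinclozolin PND50 pool. Both PND50 pools lay above both PND35 pools for 3 members, against 24.4% of all genes. The intervals of 29 members excluded a fall of 0.5 or more on the log2 scale, for example -0.19 to 0.94 for Plk1, the member with the highest difference at 0.38 (limma adjusted p = 0.448). Without the first vinclozolin pool at PND35 the median was -0.13. Skeletal muscle markers also went the other way in these pools, with 19 of 19 above 0 (median 0.59) and none called, while skin and hair follicle markers fell in 9 of 11 (median -2.44).

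**Figure D3:**
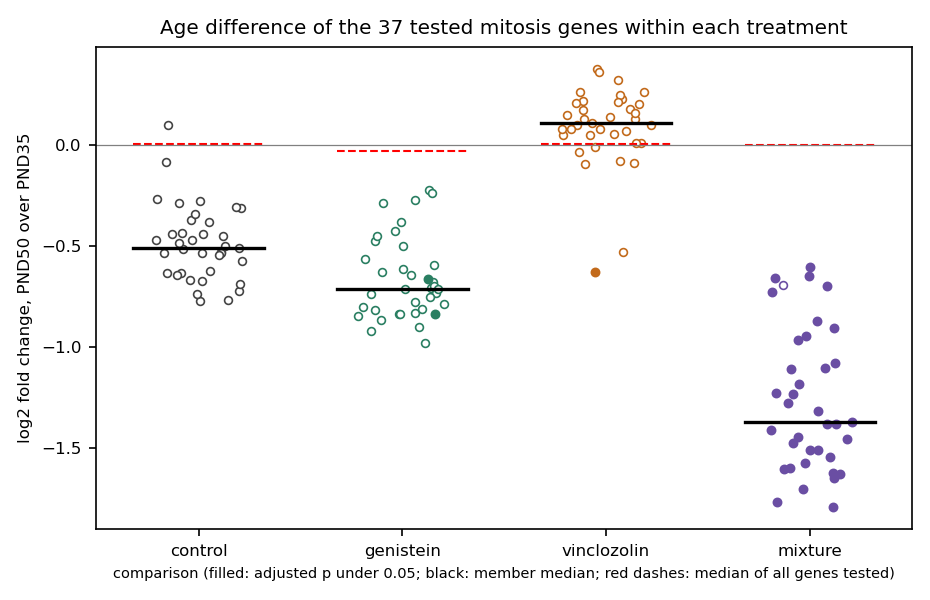
Difference between PND50 and PND35 on the log2 scale for each of the 37 tested mitosis genes within control, genistein, vinclozolin and mixture pools; each point is 1 gene, filled where called, the black bar marks the members' median and the red dashes the median of all genes. The medians are -0.51, -0.71, 0.11 and -1.37, and the 2 vinclozolin points well below the rest are Cdc25b and Aurka.

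Whether the age differences themselves differed between treatments was tested for all 6 pairs of treatments, 3 of which were added after seeing the data. Between the mixture and vinclozolin, one of those added, 26 of 37 members differed (limma adjusted p under 0.05 within that comparison), all more negative with the mixture, where 1.98% of all genes did. The median difference was -1.47, and all 37 were below 0. Kif11 had the smallest adjusted p, with a difference of -1.85 (SE 0.29, limma adjusted p = 0.00883), and Kif4a the lowest value, -1.95. With p-values adjusted over all 6 pairs together, 1 of the 37 was called, where 0.237% of all genes were called lower. The count within the comparison went down to 1 without the second mixture pool of either age, to 2 without the first mixture pool at PND50 or either vinclozolin pool at PND50, to 6 without the first mixture pool at PND35 and to 11 without the first vinclozolin pool at PND35, and it was 0 with the muscle level as a covariate, a fit in which the members' median was -1.28 and the genes called in all went from 389 to 17. Leaving out either control pool at PND35 gave 14, and either genistein pool at PND50 gave 16. Over all fits without 1 pool the members' median ran from -1.77 to -1.18 and the genes called in all from 64 to 552.

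The other 5 pairs gave no member called by limma. The mixture against control had a median of -0.80 with all 37 below 0, and 23 had an unadjusted p under 0.05, against 7.43% of all genes in that direction, with 0% of genes called lower and a smallest adjusted p of 0.253, for Cdca8. Vinclozolin against control had a median of 0.62 with 36 of 37 above 0, 0% of genes called higher, and 10 unadjusted p-values under 0.05, against 2.99% of all genes in that direction. Vinclozolin against genistein had a median of 0.87, where 29 had an unadjusted p under 0.05, against 6.74% of all genes, and 0.017% of genes were called higher. The mixture against genistein had a median of -0.64, and genistein against control -0.15, with 7 and 0 unadjusted p-values under 0.05 and 0% of genes called lower in both; all genes with an unadjusted p under 0.05 in that direction made up 4.6% and 5.62%. Cdc25b showed none of this spread between vinclozolin and control, with a difference of 0.0037 and an interval of -0.46 to 0.47. Control pools enter 3 of these pairs and each treatment enters 3, so the pairs are not independent of each other.

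The replicate pools bear on how these counts are read, because the members rose and fell together from pool to pool. In the control pair at PND50 the second pool was higher than the first for 37 of 37 members, by a median of 0.69, where the median absolute difference of all genes was 0.08. In the genistein pair at PND35 the second pool was higher for 37 of 37, by a median of 0.57, and in the vinclozolin pair at PND35 for 36 of 37, by 0.49, with Cdc25b as the exception. The first control pool at PND35 was higher for 35 of 37, with a median of -0.19 for the second minus the first. The mixture pairs were close, with median absolute differences of 0.05 and 0.07. A count of members with the same sign is therefore not a count of separate observations. The mean centred level of the members was 0.36 and 0.15 in the control pools at PND35 and -0.56 and 0.09 at PND50. For genistein it was 0.03 and 0.56, then -0.40 and -0.35. For vinclozolin it was -0.21 and 0.28, then 0.09 and 0.17. For the mixture it was 0.57 and 0.58, then -0.66 and -0.71. The standard deviation of that mean between replicate pools, pooled over groups, was 0.25. The plot of these means shows the mixture pairs at the 2 ends of the scale and the control pair at PND50 split.

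**Figure D4:**
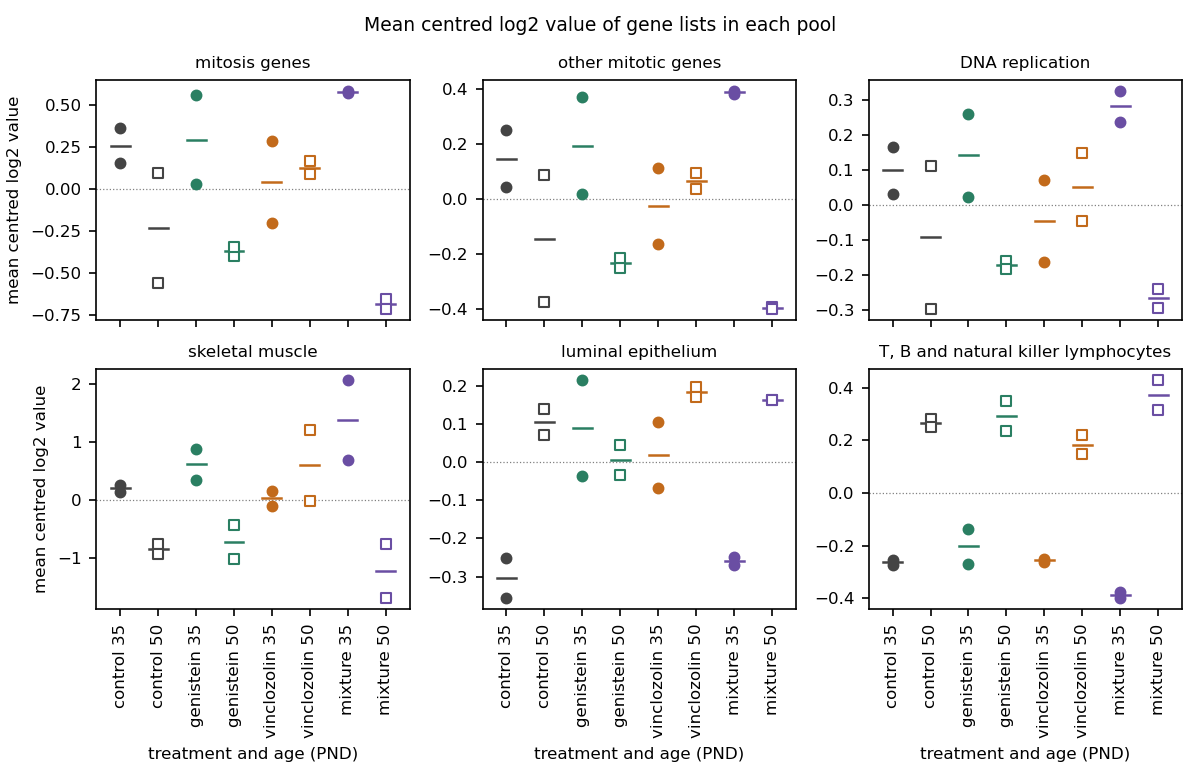
Mean centred log2 level of the mitosis genes in each of the 16 pools, by treatment and age, beside the same for other mitotic, DNA replication, skeletal muscle, luminal epithelial and lymphocyte lists on axes of their own; points are pools and bars group means. Mitotic means run from -0.71 in a mixture pool at PND50 to 0.58 in a mixture pool at PND35, and the 2 control pools at PND50 lie at -0.56 and 0.09.

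Single members followed that shared course to different degrees. Pearson's r between a member and the mean of the others over the 16 pools, which share arrays and normalization, was above 0.95 for 32 of the 37 tested, with a median of 0.98. The lowest were Aurka at 0.63 and Cdc25b at 0.76. Mixture pools at PND50 held the lowest value of 34 of 38 members, and the exceptions, Kif2c, Cdc25c, Mad2l1 and Spc25, were lowest in the first control pool at PND50. The highest value stood in a mixture pool at PND35 for 22, in the second genistein pool at PND35 for 13, and in another PND35 pool for Bub1, Cdc25b and Aurka. These are descriptions of the pools that gave the tests above.

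The exposures were then set against the control of the same age. With the mixture at PND35 all 37 members were above the control mean, against 48.7% of all genes, with a median of 0.35. No member was called by limma, and 0% of all genes were called higher. Both mixture pools exceeded both control pools for 31 members, against 24.8% of all genes, and 2 members had an unadjusted p under 0.05, against 8.16% of genes in that direction. The highest were Cep55 at 0.58 and Ndc80 at 0.57 (SE 0.25, limma adjusted p = 0.317), and the lowest Bub1 at 0.011 and Cdc25b at 0.024. At PND50 all 37 were below the control mean, against 56.5% of all genes, with a median of -0.47. None was called by limma and 0% of genes were called lower, 12 had an unadjusted p under 0.05, against 4.37%, and both mixture pools lay under both control pools for 28, against 24.6%. Ect2, at -0.82, was lowest, and Cdca8 had the smallest adjusted p (-0.48, SE 0.13, limma adjusted p = 0.444). Muscle markers were above control at PND35 for 19 of 19 (median 1.09) and below it at PND50 for 16 of 19 (median -0.44), none called.

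With vinclozolin at PND35, 35 of 37 members were below the control mean, against 56.3% of all genes, with a median of -0.24. None was called by limma, no member had an unadjusted p under 0.05, and 0.373% of genes were called lower. Both vinclozolin pools lay under both control pools for 9, against 24.3%. Tpx2 was lowest at -0.41, and Aurka was highest at 0.53 (SE 0.30, limma adjusted p = 0.464), which rests on its second pool. At PND50 all 37 were above the control mean, against 42.7% of all genes, with a median of 0.38. None was called by limma and 0% of genes were called higher, 4 had an unadjusted p under 0.05, against 2.27%, and the pools did not overlap for 12, against 14.9%. Kif4a was highest at 0.67 and Bub1b had the smallest p (0.52, SE 0.19, limma adjusted p = 0.8). In the same pools skin and hair follicle markers rose in 9 of 11 at PND35 (median 2.42), where 0.966% of all genes were called higher. Muscle markers at PND50 were above control for 19 of 19 (median 1.66), none called. The part of skin or muscle in these differences was not tested.

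Genistein had the member medians nearest to 0 at both ages. At PND35 the median was 0.03, with 23 of 37 above 0, against 60.8% of all genes, and at PND50 it was -0.14, with 36 of 37 below 0, against 52.3% of all genes. No member was called by limma or had an unadjusted p under 0.05 at either age, and 0% of genes were called in either direction. The interval for Ccnb1, lowest at PND50 with -0.34, ran from -0.94 to 0.26, wide enough to hold a difference of 0.5 in size.

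Set directly against each other, the mixture and vinclozolin pools differed in opposite directions at the 2 ages. At PND35 the mixture was higher for 35 of 37 members, with a median of 0.59, 33 pairs of pools that did not overlap, against 28.4% of all genes, and 24 unadjusted p-values under 0.05, against 12%. None was called by limma, where 1.16% of genes were called higher, and the smallest adjusted p was 0.0763, for Bub1b at 0.68. At PND50 the mixture was lower for all 37, with a median of -0.86, none of the pools overlapping, against 21.4% of all genes lying lower in this way, and 35 unadjusted p-values under 0.05, against 6.18%. Again none was called, where 0.017% of genes were called lower, and Kif11 had the smallest adjusted p, 0.138, at -1.11 (SE 0.20). A fit of those 4 arrays alone called 29 of the 37 lower at PND50, where 0.704% of all genes were called lower. Against genistein the mixture had a median of 0.27 at PND35, with 14 members not overlapping (15.5% of all genes), and -0.33 at PND50, with 33 not overlapping (23.9%). No member was called in either, and 0% of genes were called in those directions.

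**Figure D5:**
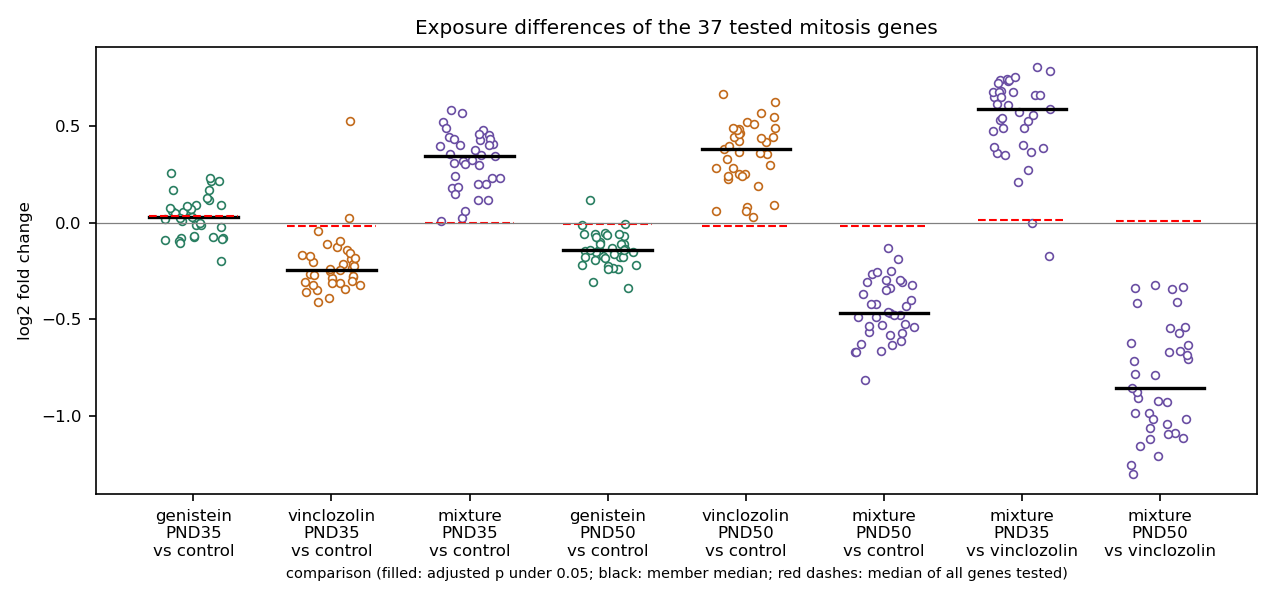
Differences of the mitosis genes from the control of the same age on the log2 scale for genistein, vinclozolin and the mixture at PND35 and PND50. The last columns show the mixture minus vinclozolin at PND35 and at PND50. Each point is 1 of the 37 tested genes, the black bar marks the members' median and the red dashes the median of all genes. Against control the mixture medians are 0.35 at PND35 and -0.47 at PND50, and the vinclozolin medians -0.24 and 0.38. The medians of the mixture minus vinclozolin are 0.59 and -0.86. None of the 37 genes passes the test in any of these comparisons.

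Other genes of the cell cycle were taken from lists that hold none of the members. Over the 4 treatments 25.2% of all tested genes fell from PND35 to PND50 and 19.4% rose. Of 40 other mitotic genes tested, 30 fell from PND35 to PND50 over the 4 treatments and none rose (median -0.36), among them Pbk, a mitotic kinase (-0.73), Hmmr, a spindle and hyaluronan-binding protein (-0.73), Plk4, which licenses centriole duplication (-0.66), and Aspm, a spindle pole protein (-0.64). Of 14 genes for subunits of the anaphase-promoting complex, its activator Fzr1 and its ubiquitin-conjugating enzyme Ube2s, 9 fell and none rose (median -0.16), with Ube2s at -0.30 and Cdc16 at -0.28. DNA replication genes fell in 19 of 30 with none rising (median -0.17), led by Rrm2, the small subunit of ribonucleotide reductase (-0.86), and Pcna, the sliding clamp (-0.48). Of 14 transcription regulators of the cell cycle, 7 fell and 1 rose: Mybl2, which activates G2 and M genes, differed by -0.35, E2f1 by -0.30 and Foxm1 by -0.25, while Rb1, the retinoblastoma protein, which restrains E2F, rose by 0.51. Among 12 genes for G1 cyclins, their kinases and kinase inhibitors, 6 fell and 1 rose, with Ccne2 at -0.43, the CDK inhibitor gene Cdkn1a at -0.52 and Cdk6 at 0.27.

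Within the mixture pools 34 of those 40 mitotic genes fell (median -0.83), as did 20 of 30 replication genes (median -0.44), 10 of 14 anaphase-promoting complex genes, with 1 rising (median -0.31), 5 of 14 transcription regulators, with 1 rising (median -0.19), and 5 of 12 G1 genes, with 1 rising (median -0.21). Of all tested genes 18.3% fell and 14.4% rose in these pools. Hmmr differed by -1.60, Rrm2 by -1.61, E2f1 by -0.84 and Foxm1 by -0.64, and Rb1 rose by 0.99. Within the vinclozolin pools no gene of the mitotic or the replication list was called by limma. Differences above 0 were 27 of 40 and 25 of 30, against 50.6% of all genes, with medians of 0.08 and 0.09. In control pools 1 of 40 mitotic genes and none of 30 replication genes fell, with medians of -0.30 and -0.19, and in genistein pools 2 and 1 fell, with medians of -0.42 and -0.25. Of all genes 0.237% fell in control pools and 1.96% in genistein pools. These lists share pools and controls with the members, so their course is not separate evidence.

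The genes outside the list whose course over the 16 pools was most like the members' mean were ranked by Pearson's r, as a description over pools that share arrays and normalization. The first 10 were Hmmr at 0.993, Fancd2 at 0.989, Plk4 at 0.985, Pclaf at 0.983, Dlgap5 at 0.982, Cenpt at 0.981, Chek2 at 0.981, Aspm at 0.979, H2ac4 at 0.977 and Hist1h2ail1 at 0.975. Of them 5 are on the list of other mitotic genes. Fancd2, Pclaf and Chek2 encode proteins of DNA repair, replication and damage signalling, and H2ac4 encodes a replication-dependent histone. Over the 8 PND35 pools alone the first were Aspm at 0.992, Ccnf at 0.991 and Mastl at 0.989, and over the 8 PND50 pools Fancd2 at 0.993, Hist1h2ail1 at 0.992 and Pttg1, securin, at 0.992.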

How the data were processed

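Rat mammary RNA in 16 pools, 2 for each of 8 groups, was labelled with biotin and hybridised to Affymetrix arrays, per the labels' protocols. The authors deposited 1 value for each of 27342 probe sets and 16 arrays, read here as log2 intensities from their range of 2.2 to 13.9. Neither labels nor headers state the log base, background correction, normalization or summarization, which are thus not given in the sources used. Dimness was judged from the values, without detection calls. A platform annotation gave 15097 probe sets exactly 1 gene symbol, 323 several and 11922 none here. Of those with 1 symbol, 15067 matched a RefSeq gene (GRCr8) and took its symbol. Each gene took its brightest probe set, and genes with a mean under 5.661, the 25th percentile of probe set means, were left out.

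Differences were tested with limma 3.58.1 in R 4.3.3 (lmFit and eBayes, 1 mean per group, 8 residual degrees of freedom, two-sided), with p-values adjusted (Benjamini-Hochberg) across the 11796 genes tested in each comparison and a threshold of 0.05. Groups of 2 pools share 1 estimate of the spread. The scripts were tested on simulated data first. The level of a list in a pool is the mean of its named genes' centred values. Motifs were searched in RefSeq promoters. Figures used matplotlib 3.10.9 in Python 3.11.15.

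The members and the gene lists were chosen with earlier results of these data known. All tested members are named, with values by pool for 18 chosen by role, and further genes by the size of their difference or their correlation with the member mean. Alternatives were the filter, normalization, probe set choice, replicate block, an intensity trend with robust eBayes, the arrays fitted, the muscle level as a covariate and leaving out each pool. After seeing the data, 3 differences between age changes, an adjustment over all 6, an age difference without the vinclozolin groups and fits without both vinclozolin PND35 pools were added.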

Additional observations from a re-analysis of the deposited data

Results flagged for a closer look

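The level of Aurka in the second vinclozolin pool at PND35, 7.86, stood apart from the other 7 pools of that age, the next of which was at 7.04. It was the 1 such value in 78 checks, of 38 members and their mean level within each age, where chance flags about 1 in 20.

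The change from PND35 to PND50 was more negative with the mixture than with vinclozolin for 26 members (limma adjusted p under 0.05 within this comparison). With vinclozolin 30 of the 37 tested members had a change above 0, with a median of 0.11, so most did not fall there. The comparison was chosen after seeing the data, and 1 member stays called when all 6 pairs of treatments are adjusted together. The values below are the mixture age change minus the vinclozolin age change on the log2 scale. Among cyclins and CDK1 the difference was -1.58 for Ccna2, -1.64 for Ccnb1, -1.70 for Ccnb2 and -1.60 for Cdk1. Among other kinases and the passenger complex the difference was -1.61 for Plk1, -1.70 for Aurkb, -1.55 for Ttk, -1.33 for Bub1, -1.28 for Melk and -0.81 for Cdca8. Among checkpoint and anaphase genes the difference was -1.47 for Bub1b and -1.78 for Cdc20. Among kinesins the difference was -1.85 for Kif11, -1.65 for Kif20a, -1.36 for Kif23, -1.196 for Kif2c, -1.95 for Kif4a and -1.12 for Kif22. Among kinetochore and spindle genes the difference was -1.78 for Ndc80, -1.58 for Nuf2 and -1.70 for Tpx2. Among cytokinesis genes the difference was -1.73 for Prc1, -1.91 for Ect2 and -1.18 for Racgap1. Among chromosome structure genes the difference was -0.94 for Smc2 and -1.72 for Top2a. Skeletal muscle levels also differed between these groups, and with them as a covariate none of the 26 was called, the members' median was -1.28 against -1.47 without it, and the genes called in all went from 389 to 17.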

How the results depend on the processing

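Of 2595 values for single members and settings, 2213 kept their direction and side of the threshold, 374 were weaker, 8 stronger and none reversed. These values do not span every member, comparison and setting, since the calls gained in some fits below number more than 8. With the skeletal muscle level as a covariate, members called went from 35 to 1 for age over all treatments, from 36 to 0 with the mixture, from 2 to 0 with genistein, from 1 to 0 with vinclozolin and from 26 to 0 for the mixture against vinclozolin age change; that level itself differed between ages. In these fits the members' median went from -0.60 to -0.55, -1.37 to -1.19, -0.71 to -0.62, 0.11 to 0.07 and -1.47 to -1.28, and the genes called in all from 5261 to 308, 3852 to 1, 327 to 1, 328 to 428 and 389 to 17. The genistein count was also 0 without the filter, with quantile normalization, with median centring and in a fit of the compared arrays alone, and the vinclozolin count was also 0 without the filter, with quantile normalization and in a fit of the compared arrays alone. The mixture against vinclozolin age change kept 15 with an intensity trend and robust eBayes. The mixture against vinclozolin at PND50 went from 0 to 29 when only the compared arrays were fitted, and the genes called in all from 4 to 108. The causes of these changes were not tested. Without both vinclozolin PND35 pools, an alternative chosen after seeing the data, 1 member was called in control and 7 with genistein. Without the vinclozolin groups, also chosen after seeing the data, 36 fell with age. For these fits and the one with an intensity trend, the share of all genes called is not given here.

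Leaving out 1 pool at a time gave 34 to 37 members for age over all treatments, 0 to 1 in control, 0 to 8 with genistein, 0 to 1 with vinclozolin, 33 to 37 with the mixture and 1 to 32 for the mixture against vinclozolin age change. It gave 0 to 1 for vinclozolin at PND35, the vinclozolin interaction, the mixture against vinclozolin at PND35 and the vinclozolin against genistein age change, in each case 1 without the first vinclozolin pool at PND35. A pool left alone in its group is assumed to vary like the others. With all pools kept, 25.2% of all genes fell for age over all treatments and 18.3% with the mixture. The shares were 0.237% in control, 1.96% with genistein, 1.64% with vinclozolin and 1.98% for the mixture against vinclozolin age change. Shares for each fit without 1 pool are not given here, so these counts do not separate the members from all genes.

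The replicate numbers are shared between groups, and the deviations of replicate pools were correlated between groups. Of 28 pairs of groups, 8 had r above 0.1, with r from -0.3664 to 0.3009 and a median of 0.0351. The main fits therefore held no replicate block. Whether pools of the same number shared a litter or were handled together was not tested. With the replicate block 35 members were called for age over all treatments, 36 with the mixture and 3 with genistein. It gave 28 for the mixture against vinclozolin age change and 0 with vinclozolin. The share of all genes called with the block is not given here, so these counts do not separate the members from all genes. With 2 pools per group, dim signal and the pools' number limit what can be detected.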
